A study of Mus musculus with 2 samples.

Results

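The Polycomb complex genes *Ezh2*, *Eed*, *Suz12*, *Jarid2*, *Mtf2*, *Phf19*, *Ring1*, *Rnf2*, *Pcgf6* and *Cbx7* were followed in newly made and preexisting RNA of mouse embryonic stem cells. They were chosen by gene symbol, and their transcripts were those that GENCODE M21 calls protein-coding. These were 10 of 21587 genes with a protein-coding transcript among the deposited values, and 38 of 49490 protein-coding transcripts. The annotation holds 40 such transcripts for the 10 genes, and the other 2, both of *Eed*, were not analysed here. On GRCm38 the genes lie at chr6:47530139-47595341 (*Ezh2*), chr7:89954654-89980983 (*Eed*), chr11:79993106-80034123 (*Suz12*), chr13:44729474-44921643 (*Jarid2*) and chr5:108065674-108109004 (*Mtf2*). *Phf19* lies at chr2:34893757-34914026, *Ring1* at chr17:34020792-34024680, *Rnf2* at chr1:151458004-151500955, *Pcgf6* at chr19:47033617-47050906 and *Cbx7* at chr15:79915807-79971119.

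Polycomb proteins keep developmental genes silent in stem cells through histone marks. Polycomb repressive complex 2 (PRC2) methylates histone H3 on lysine 27 through *Ezh2*, its catalytic subunit, which works only together with *Eed* and *Suz12*. *Jarid2*, *Mtf2* and *Phf19* are accessory subunits that bring PRC2 to chromatin. Polycomb repressive complex 1 (PRC1) ubiquitinates histone H2A through the E3 ligases *Ring1* and *Rnf2* (the latter also called Ring1B), *Pcgf6* defines a variant PRC1 and *Cbx7* carries the chromodomain that reads the PRC2 mark.

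The cells were wild-type male (XY) mouse embryonic stem cells of the line DTCM23/49, grown without feeder cells on gelatin in serum with leukemia inhibitory factor. They received 200 µM 4-thiouridine (4sU), a uridine analogue that goes into RNA as it is made, for 10 min. RNA with 4sU was then biotinylated and pulled out on streptavidin. The labeled RNA and the unlabeled RNA that remained were each sequenced as 1 library of replicate 1, so there was no replicate, no difference below has a replicate check and no test was made. One label calls the second library total RNA, while its description calls it preexisting RNA, and it was used as unlabeled RNA. All other replicates of the study were not analysed here.

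The deposited exon and intron values are relative abundances per length, so they can be compared between genes within a library. Each library's values sum to the same total, so a labeled to unlabeled ratio has meaning only beside the ratio of other genes. The number of reads behind a value is not known, and values carry no counting error here. The pluripotency genes *Pou5f1*, *Nanog*, *Sox2*, *Klf4*, *Esrrb*, *Zfp42*, *Tfcp2l1* and *Dppa5a* had summed exon values of 62.8 to 3263 in labeled RNA and of 72.9 to 2416 in unlabeled RNA. Of 16 listed marker genes of endoderm, mesoderm, neural cells and fibroblasts, *Pax6* reached 68.7 and 70.5 in the labeled and the unlabeled library, *Thy1* 6.03 and 14.5, and no other exceeded 5.88 in either library. In a bulk culture, fewer cells with a transcript and less of it per cell cannot be told apart.

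All 10 Polycomb genes were present in both pools. Values summed over the transcripts of a gene rise with the number of annotated transcripts, so levels are compared by the leading transcript, the protein-coding transcript with the highest mean exon value, which ran from 10.0 to 1964 in unlabeled RNA. On this scale unlabeled *Jarid2*, *Suz12* and *Mtf2* stood highest, at 1964, 1467 and 1275, in the 98th percentile or above among the leading transcripts of 12652 genes. *Ezh2* (457), *Pcgf6* (353), *Eed* (248), *Rnf2* (244) and *Cbx7* (154) lay between the 83rd and the 95th percentile. *Phf19* (41.6) lay near the middle of the 12652 genes, at the 58.2 percentile, and *Ring1* (10.0) below it, at the 31.4 percentile. In labeled RNA the same 3 genes came first, *Jarid2* at 534, *Mtf2* at 516 and *Suz12* at 468. *Eed* (330) came next, above *Ezh2* (210), *Pcgf6* (196), *Cbx7* (115), *Rnf2* (60.1), *Ring1* (13.5) and *Phf19* (11.6). The places of *Jarid2* and *Mtf2* rest on short transcript models. By longest transcript, labeled *Suz12* (457) and *Eed* (330) came before *Jarid2* (273) and *Mtf2* (249), and unlabeled *Suz12* (1144) before *Jarid2* (730) and *Mtf2* (386). Neighbours in these orders cannot be separated without replicates.

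**Figure D1:**
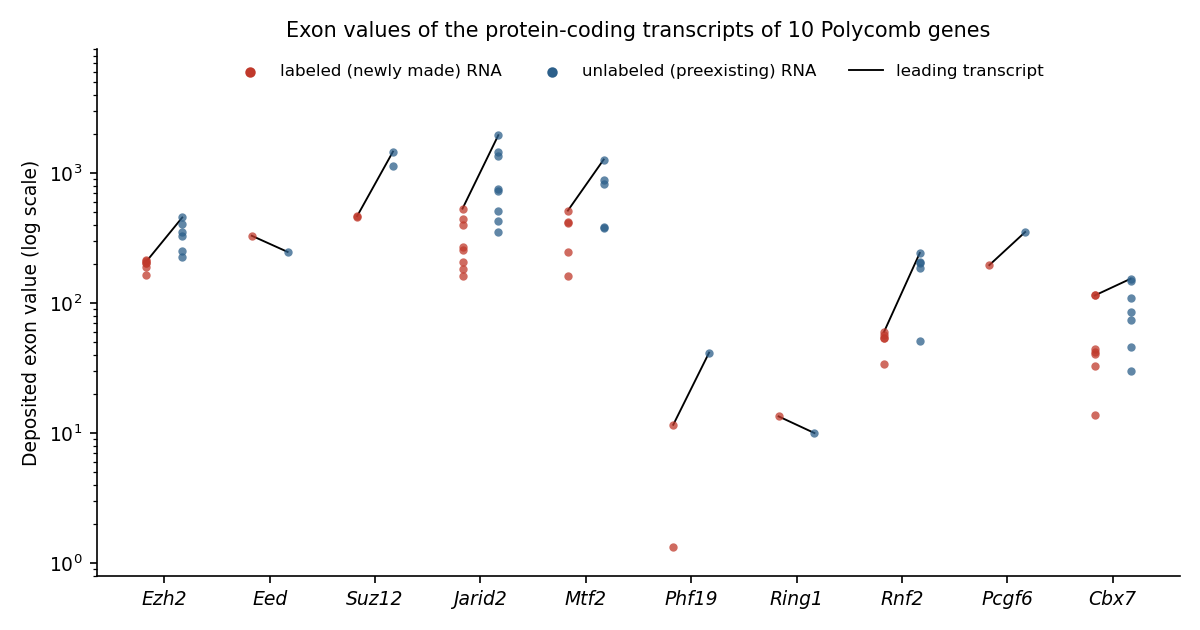
Deposited exon value (log scale) of each protein-coding transcript of the 10 genes in labeled RNA (red) and unlabeled RNA (blue), 1 library each, with a line joining the values of the leading transcript. The line falls from labeled to unlabeled in Eed and Ring1 and rises in the other 8, and the unlabeled value of 0 of Phf19-205 is not drawn.

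The question the 2 pools address is how much of each gene's RNA was made within the pulse. Values summed over protein-coding transcripts were lower in labeled than in unlabeled RNA in 8 of the 10 genes, and higher in *Eed* and *Ring1*. Over 14127 protein-coding genes with a mean exon value above 1, the median log2 labeled to unlabeled ratio was -0.26, and each ratio below is given relative to this median gene. With this reference 8 genes lay below the median gene and 2 above. The members' median was -0.71 on the log2 scale. *Suz12*, *Jarid2*, *Phf19* and *Rnf2* lay more than 2-fold below the median gene, and 0 members lay more than 2-fold above it. Of all genes compared, 14.8% lay more than 2-fold below and 21.9% more than 2-fold above. Taken as deposited, without the median gene as the reference, 5 members were more than 2-fold lower in labeled RNA, the fifth being *Mtf2*, against 22.7% of all genes, and 17.4% of all genes were more than 2-fold higher.

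**Figure D2:**
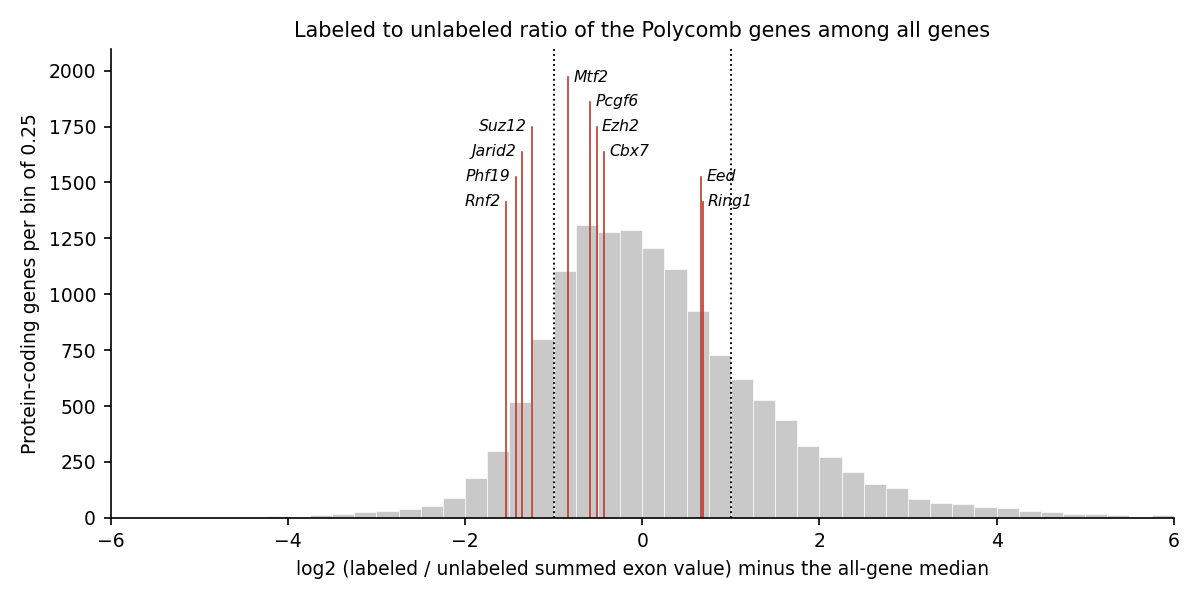
Histogram of the log2 labeled to unlabeled ratio of summed exon values, minus the median, over 14127 protein-coding genes (grey, values beyond 6 in the last bins), with the 10 Polycomb genes as red lines of arbitrary height. Dotted lines mark 2-fold from the median gene, and 4 Polycomb genes lie left of the lower line and none right of the upper line.

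Among the 3 core subunits of PRC2 the ratio was not alike. *Eed*, the subunit that binds the finished H3 lysine 27 mark, had summed exon values of 330 in labeled and 248 in unlabeled RNA. It thus lay 1.59-fold above the median gene, at the 71.0 percentile of all genes. *Suz12*, the scaffold of the complex, had 924 in labeled and 2611 in unlabeled RNA and lay 2.36-fold below the median gene, at the 9.26 percentile. *Ezh2*, the methyltransferase, had 1186 and 2026 and lay 1.43-fold below, at the 31.2 percentile. The labeled to unlabeled ratio of *Eed* was 3.76 times that of *Suz12*. By leading transcript, the order of the core subunits differed between the pools. *Suz12* exceeded *Eed* 5.91-fold in unlabeled RNA and 1.42-fold in labeled RNA. *Ezh2* was 1.84 times *Eed* in unlabeled RNA and 0.635 times *Eed* in labeled RNA, and 1.32 and 0.575 times by longest transcript. The place of *Eed* above labeled *Ezh2* did not hold by summed values, where *Eed* was the lowest of the 3 in both pools. The sum covers 1 coding transcript in *Eed* and 6 in *Ezh2*.

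Suz12-206 had exon values of 468 labeled and 1467 unlabeled, and Suz12-201, which differs little from it in length, had 457 and 1144. The 6 coding transcripts of *Ezh2* ran from 165 to 214 in labeled RNA and from 227 to 457 in unlabeled RNA, with Ezh2-202 at 210 and 457 and Ezh2-203 at 214 and 408. *Eed* had the single coding transcript Eed-201. In all 3 genes part of the sequence lies under a gene of the other strand. Of the 50-base stretches of the longest transcript, 10.5% in *Eed*, 3.03% in *Suz12* and 1.61% in *Ezh2* also occur in such a gene on the complementary strand. The overlapping *Gm26563*, on the strand opposite to *Suz12*, had values of 217 and 188. Whether reads were assigned by strand is not given in the sources used here, and the part of these overlaps in the ratios was not tested.

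The 3 accessory subunits of PRC2 all lay below the median gene. *Jarid2*, a DNA-binding relative of the Jumonji demethylases without their activity, had summed exon values of 2460 labeled and 7548 unlabeled, 2.57-fold below the median gene. *Phf19* had 12.9 labeled and 41.6 unlabeled, 2.69-fold below the median gene. *Mtf2*, like *Phf19* a Polycomb-like protein with a Tudor domain, had 1762 labeled and 3756 unlabeled, 1.78-fold below, short of the 2-fold line. Relative to the median gene, the log2 ratio of *Mtf2* was barely past that line by its leading transcript and -0.36 by its longest. Mtf2-208 had exon values of 516 and 1275, Mtf2-213 had 420 and 887, and Mtf2-202 had 415 and 826. The leading transcripts of *Jarid2* (Jarid2-204, 476 bases) and of *Mtf2* (Mtf2-208, 718 bases) are short models whose coding sequence the annotation marks as incomplete. The longest coding transcripts were lower, with 273 and 730 for *Jarid2* and 249 and 386 for *Mtf2*. The last part of *Mtf2* overlaps *Tmed5* on the other strand, and 8.68% of the 50-base stretches of its longest transcript also occur in other genes.

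Within the Polycomb-like family *Mtf2* was the most abundant. In unlabeled RNA its leading transcript was 30.6 times that of *Phf19*, and its longest transcript 9.28 times. Their paralog, *Phf1*, had exon values of 0.44 labeled and 6.54 unlabeled. *Ezh2* exceeded its paralog *Ezh1* 9.57-fold in unlabeled and 5.37-fold in labeled RNA by leading transcript, and 10.1-fold and 6.58-fold by longest transcript. *Ezh1* itself, at 101 and 114 summed, lay close to the median gene (0.08 above it on the log2 scale).

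**Figure D3:**
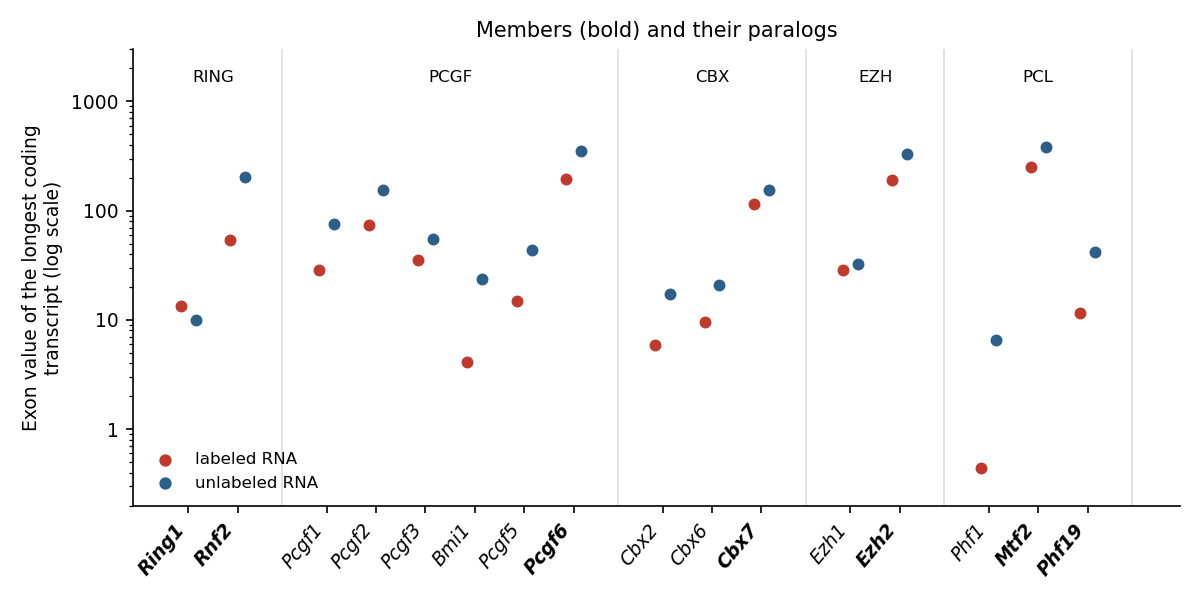
Exon value of the longest protein-coding transcript of the members (bold) and their paralogs with a mean exon value above 1, by family, in labeled (red) and unlabeled RNA (blue), 1 library each, on a log scale. Rnf2, Pcgf6, Cbx7, Ezh2 and Mtf2 have the highest unlabeled values of their families.

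In PRC1 the paired E3 ligases stood at opposite ends. *Rnf2* had summed exon values of 258 labeled and 894 unlabeled. It lay 2.90-fold below the median gene, at the 5.09 percentile and the lowest of the 10 genes. *Ring1* had 13.5 labeled and 10.0 unlabeled, 1.61-fold above the median gene at the 71.4 percentile and the highest of the 10. *Eed* was close behind at the 71.0 percentile. With all transcripts of a gene counted, *Eed* stood above *Ring1*, at 0.79 against 0.50 on the log2 scale. The labeled to unlabeled ratio of *Ring1* was 4.65 times that of *Rnf2*. By leading transcript *Rnf2* exceeded *Ring1* 24.3-fold in unlabeled RNA and 4.46-fold in labeled RNA. In *Rnf2* the transcripts Rnf2-203 (60.1 labeled, 244 unlabeled), Rnf2-201 (53.5 and 208), Rnf2-204 (53.7 and 203) and Rnf2-207 (57.1 and 188) were alike, whereas Rnf2-205, an incomplete model, had 34.0 and 51.3.

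The starts of the *Rnf2* and *Ring1* coding sequences are shown for 2 reasons. These are the lowest and the highest of the 10 genes by ratio of summed coding values, and 4sU can enter RNA only in place of U. Both are the first 90 coding bases of the GENCODE M21 transcripts Rnf2-204 (GRCm38 chr1:151469405-151500811, minus strand) and Ring1-201 (chr17:34020792-34024680, minus strand), 5′ to 3′, with every T, which is U in the RNA, in capitals.
*Rnf2*: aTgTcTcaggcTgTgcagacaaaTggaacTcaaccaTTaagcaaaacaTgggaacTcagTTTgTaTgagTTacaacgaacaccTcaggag
*Ring1*: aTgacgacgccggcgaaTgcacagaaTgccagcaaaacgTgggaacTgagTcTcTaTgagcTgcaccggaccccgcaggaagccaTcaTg
The *Rnf2* stretch holds 19 U and the *Ring1* stretch 12. Over the whole coding sequences U made up 21.5% of 1011 bases in *Rnf2* and 16.1% of 1221 bases in *Ring1*. Aligned to each other, the coding sequences were identical at 70.8% of 983 positions, and the longest transcripts shared 0 stretches of 50 bases with each other or with any other gene. *Ring1* had the higher labeled to unlabeled ratio and the lower share of U, and the part of U in the ratios was not tested.

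*Pcgf6*, which forms the variant PRC1 that also holds the E2F6 and MGA proteins, had the single coding transcript Pcgf6-201 with exon values of 196 labeled and 353 unlabeled, a log2 ratio of -0.59 relative to the median gene. It was the highest of the 6 PCGF genes by leading transcript, ahead of *Pcgf2* (103 and 273), *Pcgf1* (31.5 and 76.4), *Pcgf3* (35.6 and 55.2), *Pcgf5* (17.5 and 52.3) and *Bmi1* (3.80 and 50.9). Summed over coding transcripts, *Pcgf2* came first instead, with 426 and 1016. *Cbx7*, which gives canonical PRC1 its reader subunit in stem cells, had summed exon values of 403 labeled and 648 unlabeled, 1.35-fold below the median gene. Cbx7-201 had 115 and 154, and Cbx7-203 had 115 and 149. Other chromodomain genes of PRC1 were lower. *Cbx6* had 9.57 and 21.01 by leading transcript, *Cbx2* 5.90 and 17.3, and *Cbx8* 0.52 in unlabeled RNA while it was listed at 0 in labeled RNA. *Cbx7* thus exceeded *Cbx6* 11.98-fold in labeled and 7.33-fold in unlabeled RNA.

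Introns give the second view, since they mark RNA that is not yet spliced. In each library the intron value of the leading transcript was divided by its exon value. In labeled RNA the ratio ran from 0.112 in *Mtf2* to 0.735 in *Rnf2*, with a median of 0.255, against a median of 0.473 over the leading transcripts of 12652 genes. In unlabeled RNA it ran from 0.0104 in *Jarid2* to 0.272 in *Ring1*, with a median of 0.0339, against 0.0931. The labeled ratio lay below the median of the 12652 genes in 9 of 10 genes and the unlabeled ratio in 9 of 10, the exceptions being *Rnf2* and *Ring1* respectively. These counts depend on the transcript used. Summed over coding transcripts, *Phf19* (0.886) and *Cbx7* (0.598) in labeled RNA and *Cbx7* (0.151) in unlabeled RNA also exceeded these medians, which are by leading transcript. The labeled ratio exceeded the unlabeled ratio in all 10 genes, as it did in most genes. Over the 12652 leading transcripts it was 4.93 times the unlabeled ratio at the median and 2.39 times at the lower quartile.

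Among all leading transcripts, that of *Rnf2* lay at the 29.0 percentile by its unlabeled ratio and at the 67.6 percentile by its labeled ratio. The leading transcript Rnf2-203 had intron values of 44.1 labeled and 10.7 unlabeled beside exon values of 60.1 and 244, which gave ratios of 0.735 and 0.0438. Its labeled ratio was 16.8 times its unlabeled ratio, a step larger than in 91.5% of genes. Ring1-201 was the reverse, with intron values of 5.32 and 2.72, ratios of 0.396 and 0.272, and a step of 1.46-fold that was smaller than in all but 14.2% of genes. The intron values of *Ring1* are low, and their error is unknown. *Gm36527*, on the same strand inside *Rnf2*, overlaps it over 3029 bases and had exon values of 31.1 labeled and 9.54 unlabeled. The part of *Gm36527* in the intron values of *Rnf2* was not tested. The largest step, 24.1-fold, was in Phf19-201, with intron values of 4.83 and 0.72 and ratios of 0.416 and 0.0173. Summed over its coding transcripts *Phf19* had 0.886 and 0.0387, and its labeled ratio was 0.834 with subtraction of unlabeled RNA carried into the labeled pool.

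The other 7 genes lay between. Jarid2-204 had ratios of 0.163 and 0.0104, Suz12-206 had 0.295 and 0.0268, Mtf2-208 had 0.112 and 0.0141, and Ezh2-202 had 0.263 and 0.0345. Pcgf6-201 (0.175 and 0.0333) and Eed-201 (0.174 and 0.0411) had nearly the same pair of ratios. These 2 differed in exon values, since unlabeled *Pcgf6* exceeded labeled *Pcgf6* and the reverse held for *Eed*. Cbx7-201 had 0.247 and 0.0819, and its summed transcripts had 0.598 and 0.151. Several of these ratios moved by more than 1.5 times with the transcript used. By longest transcript *Mtf2* had 0.232 and 0.0495, *Jarid2* 0.304 and 0.0932, and *Ezh2* 0.0526 in unlabeled RNA. With subtraction of unlabeled RNA carried into the labeled pool, the labeled ratio of *Suz12* rose to 0.513.

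**Figure D4:**
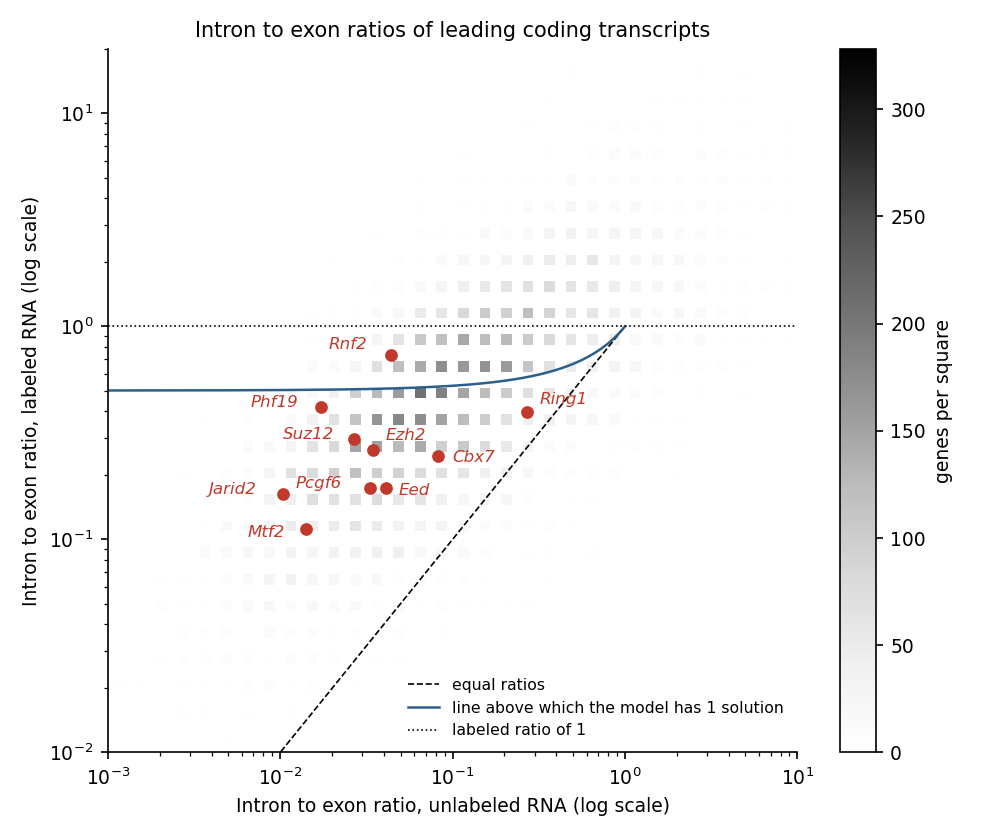
Intron to exon ratio in unlabeled RNA (x) against labeled RNA (y), both on log scales, for the leading coding transcripts of 12652 genes (grey squares, darker with more genes) and the 10 Polycomb genes (red). All 10 lie above the dashed line of equal ratios and below a labeled ratio of 1, and only Rnf2 lies above the blue line.

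In *Jarid2* the unlabeled intron value depended on which coding transcript was read. The 3 coding transcripts that end by position 44848340 of chromosome 13 (GRCm38), Jarid2-204, Jarid2-212 and Jarid2-213, had intron values of 87.0 to 95.0 in labeled RNA and of 15.6 to 22.0 in unlabeled RNA. The 5 coding transcripts that reach further, Jarid2-201, Jarid2-208, Jarid2-209, Jarid2-210 and Jarid2-211, had 78.0 to 112 in labeled RNA, an overlapping range, but 68.0 to 230 in unlabeled RNA, which did not overlap. The unlabeled intron to exon ratios were 0.0104 to 0.0163 in the first set and 0.0932 to 0.533 in the second. In Jarid2-209 (112 labeled, 230 unlabeled) and Jarid2-211 (78.0 and 152) the intron value was higher in unlabeled than in labeled RNA. How common this is over all coding transcripts was not counted. These transcripts were singled out after their values were seen, and they share introns and exons, so that they are not independent. The snoRNA gene *Gm22213*, on the other strand inside *Jarid2*, was listed at 118 in labeled RNA and at 0 in unlabeled RNA, and what lies behind the high unlabeled intron values was not tested.

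**Figure D5:**
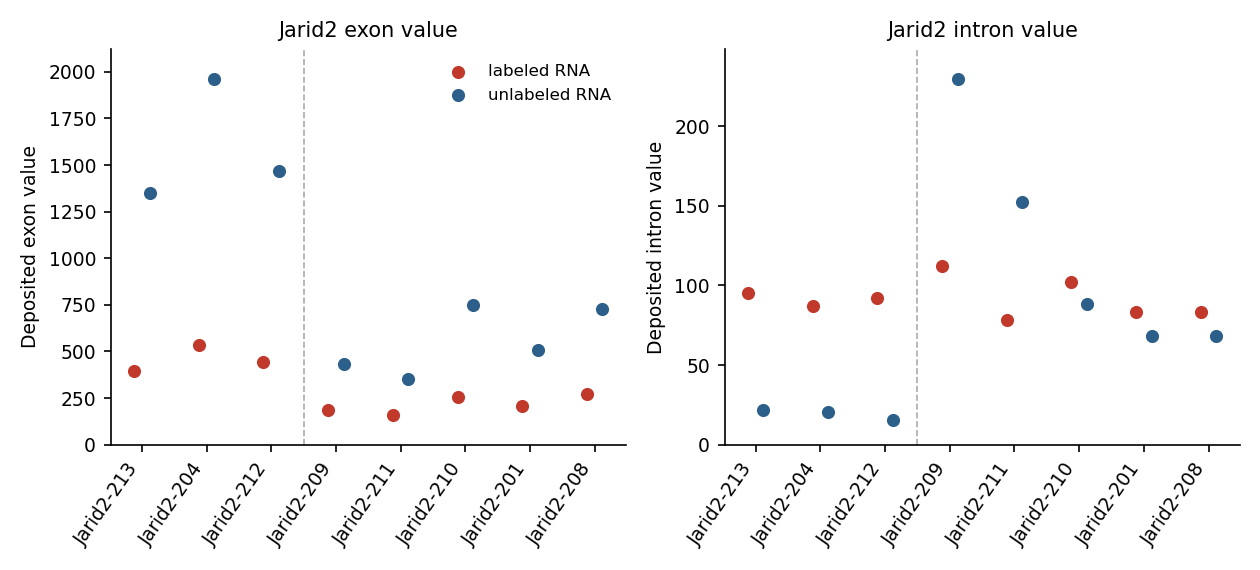
Deposited exon values (left) and intron values (right) of the 8 protein-coding transcripts of Jarid2 in labeled (red) and unlabeled RNA (blue), ordered by where the transcript ends, 1 library each, on linear axes from 0. Right of the dashed line, among the 5 transcripts that reach further, unlabeled intron values are 68.0 to 230, against 15.6 to 22.0 left of it, while labeled intron values overlap.

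The study's model, in which RNA is made, spliced and degraded at constant rates, gives a degradation rate from the 2 ratios alone. It needs an unlabeled ratio below the labeled ratio and a labeled ratio below 1. All 10 leading transcripts met this, as did 71.1% of the leading transcripts of 12652 genes. Among all coding transcripts of the 10 genes, 34 of 38 met it, and 4 had a labeled ratio of 1 or more. The share of all coding transcripts that met it is not given here. Over 31386 coding transcripts with a mean exon value above 1 and no value of 0, the upper quartile of the labeled ratio was 1.11. Of the 10 leading transcripts, that of *Rnf2* alone lay in the region where the model has 1 solution, as did 20.2% of all leading transcripts, and its half-life was 119 min. Other coding transcripts of *Rnf2* differed: Rnf2-207 had a labeled ratio of 0.420 and a half-life of 7.26 min, and Rnf2-205 had a labeled ratio of 1.44. Cbx7-202, Cbx7-204 and Cbx7-205 also lay in that region, with half-lives of 13.9, 215 and 249 min. For *Phf19* there were 2 solutions, 19.6 and 1.13 min. The other 8 ratio pairs had no exact solution, and their nearest fit along the solution curve gave half-lives of 11.3 min (*Suz12*) to 36.6 min (*Mtf2*). With the nearest fit sought over both rates instead, these 8 fell to between 1.30 and 5.31 min. Reading the second library as total RNA gave 230 min for *Rnf2* and from 5.72 min (*Ring1*) to 184 min (*Phf19*) for the other 9. Over the settings tried, which used the leading, longest or summed transcripts, half-lives of *Rnf2* lay between 119 and 256 min, except that with subtraction of unlabeled RNA carried into the labeled pool its labeled ratio became 1.68 and no rate could be computed. Those of each other gene spread 7.49-fold or more, so their order is not given. The fit over both rates and the choice between 2 solutions cannot change *Rnf2*, which has 1 exact solution. In the 8 genes without an exact solution, the lowest half-life came from the fit over both rates. The spreads thus do not compare how stable the half-life of *Rnf2* is with that of the others.

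The other genes of the Polycomb system were compared in the same way. Of 43 further genes, subunits of PRC2, PRC1 and the H2A deubiquitinase complex and the demethylases of the PRC2 mark, 41 could be compared, and 15 lay more than 2-fold below the median gene and 1 above, with a median of -0.70 on the log2 scale. For comparison, 14.8% of all genes lay below that line. The 15 were 10 of 23 PRC1 subunits (list median -0.85), 2 of 8 PRC2 subunits (-0.25) and 1 of 8 subunits of the deubiquitinase (-0.19), and both H3 lysine 27 demethylases, *Kdm6a* (-1.06) and *Kdm6b* (-1.20). The lowest with a mean exon value of at least 10 were *Bmi1* (-2.28), *Phc2* (-1.91) and *Yaf2* (-1.31), all of PRC1. The highest were *Lcor* (1.06), a PRC2 partner, and *Phc3* (0.73) and *Scml2* (0.62) of PRC1. Among the 10 members, 1 of 3 core and 2 of 3 accessory PRC2 subunits lay more than 2-fold below, and 1 of 4 PRC1 subunits. The lists are small, and a difference between complexes was not tested.

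Several properties of the transcripts move with the ratio across genes. Over the 14127 genes, which are not independent replicates and share the 2 libraries, Spearman's rho of the log2 labeled to unlabeled ratio was -0.36 with the spliced length of the longest coding transcript, -0.29 with its unspliced length, -0.24 with its number of exons, -0.15 with its share of U and -0.30 with the mean exon value. Over the 10 members rho was -0.67 with spliced length, -0.47 with unspliced length, -0.34 with the number of exons and -0.52 with the share of U. The longest coding transcripts of the members had a median of 3295 bases, against 2962 over all genes, and ran from 2034 in *Ring1* and 2067 in *Eed* to 5997 in *Jarid2*. The 2 genes above the median gene were thus the 2 shortest. Among these longest transcripts the share of U was lowest in *Ring1* (17.7%) and highest in *Rnf2* (31.2%), with 24.4% as the median of all genes. By leading transcript *Rnf2* had 24.5%, and *Suz12* was the highest member at 29.0%. The part of length and of U in the members' ratios was not tested.

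The gene most like each member was sought over the log2 exon and intron values of the leading transcripts in both libraries, 4 values, among 8815 genes with a mean exon value of at least 10. The nearest to *Rnf2* was *Rnf111*, with exon values of 71.0 and 225 and intron values of 40.5 and 9.06, at a distance of 0.378 log2 units. *Plscr3* was nearest to *Ring1* (0.190), *Ptp4a2* to *Ezh2* (0.205), *Upp1* to *Eed* (0.372), *Mat2a* to *Suz12* (0.339) and *Zfp106* to *Jarid2* (0.219). *Ube2k* was nearest to *Mtf2* (0.512), *Eif5a2* to *Phf19* (0.375), *Bub1* to *Pcgf6* (0.256) and *Phf11d* to *Cbx7* (0.2005). The distance is over 4 values of 2 libraries and carries no error.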

How the data were processed

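Per the study's methods, the authors aligned reads left after removal of ribosomal RNA to exon and intron sequences of Ensembl v91 transcripts (mm10, GRCm38) with STAR 2.5.0 and quantified them with RSEM. The deposited values, which the authors call TPM, were treated as a signal, since each library sums to 10 times what a TPM library would. The file keeps no counts, so depth is unknown.

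Exon values were summed over the protein-coding transcripts of a gene (GENCODE M21, which matched 90.9% of its transcripts), genes with a mean above 1 were kept, and the log2 labeled to unlabeled ratio was taken relative to the median gene. Intron to exon ratios were taken within a library, for the leading transcript. A gene was called when past 2-fold, with no test, as each pool had 1 library. Rates followed the study's Eqs. 10 to 17 on 4000 grid points, with 10 min as labeling time. Calls and rates were checked on simulated data, the rates with ratio pairs drawn from the model without noise. Pairs without an exact solution, as in 8 of the 10 leading transcripts, were not simulated. The named genes were all 10 members, their leading transcripts and those with 20% or more of a gene's sum, their paralogs, the 3 highest and 3 lowest other Polycomb genes, the nearest gene to each member, and Polycomb targets with a mean of 10 or more. The members, lists and rules were chosen with earlier results of these data known. Overlap was counted in 50-base stretches on either strand. Not every paralog is reported here. Other replicates and other conditions were not analysed here. The software was matplotlib 3.10.9, scipy 1.17.1, pandas 2.3.3, numpy 2.4.6 and Python 3.11.15.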

Additional observations from a re-analysis of the deposited data

How the results depend on the processing

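No paired analysis was possible because each pool had 1 library and no result came from a test, and for the same reason no replicate could be left out. A value counted as moved when it changed by more than 1.5 times. The calls of *Suz12*, *Jarid2*, *Phf19* and *Rnf2* more than 2-fold below the median gene held under the 7 other settings: the leading transcript, all biotypes, a pseudocount of 1, a mean above 10, no filter on low values, subtraction of leakage (0.143 times the unlabeled value), and the longest coding transcript. The last, and the ratio without the median gene as reference, were chosen after seeing the data. *Mtf2* joined them by leading transcript, where 15.4% of all genes lay below, and after subtraction of leakage, where 21.3% did, against 14.8%. Subtraction of leakage also moved *Phf19* from -1.43 to -2.06 and *Rnf2* from -1.53 to -2.26 on the log2 scale. No member changed sign. The median half-life of the members was 21.7 min, 50.8 min with the second library read as total RNA and 3.87 min with both rates fitted, and lay between 18.6 and 21.7 min otherwise. Without counts, depth sets an unknown limit on the low intron values of *Phf19* and *Ring1*.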

Other observations

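Genes that Polycomb complexes are known to silence in stem cells were nearly absent from both pools. Of 53 listed targets, among them the Hox genes and regulators of the neural, endodermal and mesodermal lineages, 32 were listed at 0 in both libraries and 48 had a mean exon value below 1. *Pax6*, an eye and forebrain regulator, reached 68.7 labeled and 70.5 unlabeled, and *Olig2*, an oligodendrocyte and motor neuron regulator, 22.7 and 34.2. These 2 were the targets with a mean of 10 or more, and next came *Gata4*, an endoderm and heart regulator, with 4.87 and 5.88. The list holds genes chosen as silent in such cells, and its counts do not test the complexes.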
